A study of Danio rerio with 23 samples.

Results

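The effect of removing the evolutionarily conserved domain (ECD) of Neurod1 was examined by comparing 3 libraries of cells carrying hsp70:neurod1delECD with 4 libraries carrying hsp70:neurod1. These 7 of the 23 libraries of the series were taken by the transgene given in their labels. Libraries of the form lacking the smaller ultra conserved element (hsp70:neurod1delUCE, n = 3) were not pooled with them. All cells came from Tg(sox17:dsred) zebrafish embryos, which carry a red reporter in the endoderm. Heat shocks given at 38 hpf and again at 48 hpf switched on the hsp70l promoter, which drove GFP and the Neurod1 form as 1 transcript. At 52 hpf the trunks of about 150 embryos, dissected to leave out the pancreas, were pooled for each library and 2000 to 4000 dsred+ cells were sorted. Libraries with an ascl1a transgene under the same promoter (Ascl1a, n = 3) entered the fits only through the gene filter, the scaling and the shared estimate of the spread. The hsp70:neurod1delUCE libraries entered these fits in the same way, and were also compared directly with Neurod1delECD. Control embryos (n = 3) carried the reporter without a further transgene and received the same heat shocks. The embryos kept their own wild-type neurod1 gene, so the deleted protein was added to normal cells, and the promoter acts in all cells of the embryo. Nothing in the labels says whether the libraries of a group came from separate crosses, so p-values measure the spread between these libraries, which may be in part technical.

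Neurod1 is a basic helix-loop-helix (bHLH) transcription factor that drives progenitors of the pancreas, gut and nervous system toward endocrine and neuronal fates. It binds E-boxes as a dimer with E proteins, and the ECD adjoins the bHLH region. In the gut epithelium, progenitors choose between absorptive enterocytes and secretory cells, which comprise mucus-making goblet cells and hormone-making enteroendocrine cells (EECs). Atoh1 and Gfi1 factors act in the secretory lineage of mammals, while Neurod1, Pax4, Insm1 and Rfx6 act in the endocrine branch.

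The deletion was built by mutagenic PCR with a pair of primers, shown here because they set the edges of the sequence that separates the compared proteins. They anneal to the neurod1 coding sequence on either side of the ECD (chromosome 9) and point away from it. Sequences are written 5′ to 3′ in lower case.
O768 (sense): agccaggagatgccccctcatat
O769 (antisense): cctcaagatttccgaaagagcccaa

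Totals were 11895336 to 22301304 counts with Neurod1delECD and 11278779 to 17145056 with Neurod1, and values are given as CPM after TMM scaling, an adjustment for RNA composition. Detection was taken to begin at a count of 3, which equals 0.153 to 0.229 CPM in the former group and 0.180 to 0.250 CPM in the latter and covers counting error only. Neurod1delECD replicate 2 stood apart, with a TMM factor of 0.761 against 0.946 to 1.1 in the other 6 libraries. Values without it are given for many of the results below. Correlations of log2 CPM were 0.881 to 0.934 among Neurod1delECD libraries, 0.898 to 0.932 among Neurod1 libraries and 0.865 to 0.944 between the groups, so libraries of different groups were about as alike as replicates. Endoderm markers such as epcam (742 to 1246 CPM with Neurod1delECD and 597 to 1043 CPM with Neurod1) and foxa3 were abundant in all 7 libraries. Summed markers of the liver were at 234.6 to 647 CPM with Neurod1 and 317 to 1721 CPM with Neurod1delECD, highest in replicate 2, those of muscle at 159.8 to 15194 and 485 to 5925 CPM, and those of leukocytes at 118 to 278 and 10.7 to 155 CPM. In sorted bulk cells, fewer cells of a type and less RNA per cell cannot be told apart.

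The transgenes were checked first, through the feature that the authors added for the neurod1 region carried by the transgene (ENSDARG00000139139). It was at 19.0, 36.6, 53.9 and 20.1 CPM in Neurod1 replicates 1 to 4 and at 7.33, 3.95 and 5.95 CPM in Neurod1delECD replicates 1 to 3. In controls it was at 1.09, 0.270 and 0.118 CPM. All Neurod1delECD libraries lay above all controls and below all Neurod1 libraries. However, the feature was also at 21.8 to 177 CPM in the Ascl1a libraries, which carry no neurod1 transgene by their labels. The lowest of these lay above all Neurod1delECD libraries and above Neurod1 replicates 1 and 4. The level of this feature can therefore not be taken as a measure of transgene dose. The mean log2(CPM + 1) was lower with Neurod1delECD by 2.21, with p = 0.057 in a two-sided exact permutation test, and no smaller p can be reached with 3 against 4 libraries. The means differed 5.64-fold. Part of this region is deleted in Neurod1delECD, and the authors dropped reads that mapped both to it and to the endogenous gene, so how much of the difference reflects the amount of transgene RNA was not tested. A lower dose of the deleted form and the loss of the ECD cannot be told apart in the comparisons that follow.

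The endogenous neurod1 gene (ENSDARG00000019566), counted in its 3′ UTR only, was also lower with the deleted form. It was at 69.2, 21.6, 33.6 and 36.5 CPM with Neurod1, at 7.38, 7.43 and 3.36 CPM with Neurod1delECD, and at 2.54, 0 and 4.24 CPM in controls. The 3 Neurod1delECD libraries lay below all 4 Neurod1 libraries and reached into the range of the controls. The log2 fold change was -2.73 (standard error 1.04, unadjusted p = 0.0188), and the FDR was 0.91 with edgeR and 0.637 with DESeq2.

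**Figure D1:**
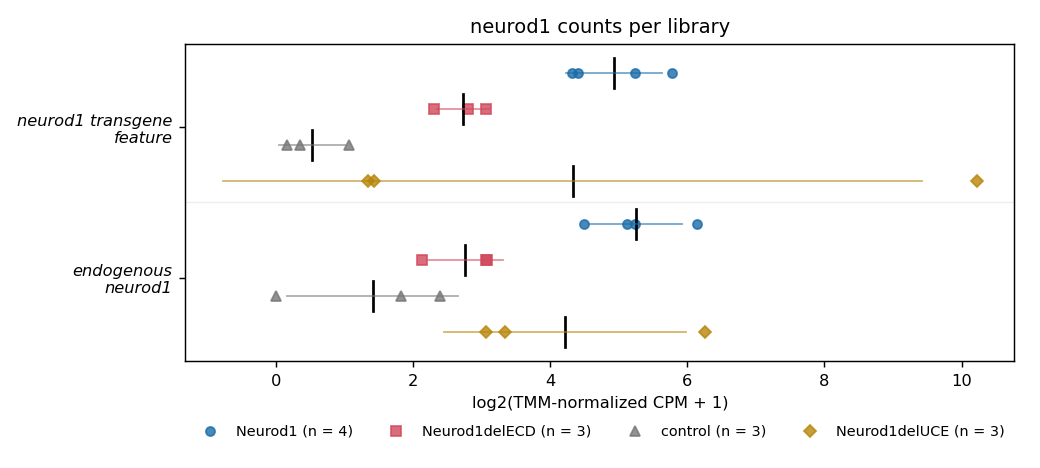
Counts of the neurod1 transgene feature and of endogenous neurod1. The x axis is log2(TMM-normalized CPM + 1), each point is 1 library, black ticks are group means and thin lines 1 SD. With Neurod1delECD both rows sit below all 4 Neurod1 libraries. With Neurod1delUCE, replicate 1 stands far above replicates 2 and 3 in both rows.

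Across all genes, no gene passed an FDR of 0.1 between Neurod1delECD and Neurod1 with edgeR's quasi-likelihood test, in a fit of all 16 endodermal libraries (0 of 18911 genes tested, 0.0%). Before adjustment, p was under 0.05 for 820 genes (4.34%), with 453 higher (2.4%) and 367 lower (1.94%) with Neurod1delECD. DESeq2, the tool named in the methods of the study, called 21 genes on the same libraries (0.082% of 25611). Of these, 20 were higher (0.0781%) and 1 was lower (0.0039%) with Neurod1delECD. Only 2 of the 21, si:dkey-39a18.1 and atoh1b, passed an FDR of 0.05. With only the 7 libraries in the fit, DESeq2 called 146 genes (0.719% of 20314), 74 higher (0.364%) and 72 lower (0.354%), including all 21. limma voom called 1 gene (mfsd4aa), and edgeR on the 7 libraries called 1 gene (atoh1b). Counts were also simulated for this design in a single draw, with the spread that edgeR estimated and changes only in genes above 1 CPM. There, edgeR recovered 36% of genes changed 4-fold and 82% of genes changed 16-fold, with 4.84% unchanged genes among its calls. Of the calls of DESeq2 on these counts, 34.0% were unchanged genes. In the simulation edgeR called 124 genes, against 0 in the real libraries. These shares are therefore no measure of power or of false calls in the real comparison. All 3 Neurod1delECD libraries lay above all 4 Neurod1 libraries for 845 genes (4.47%) and below them for 701 genes (3.71%), 8.18% in all. Without Neurod1delECD replicate 2 the shares were 7.65% and 6.14%. The genes described next are therefore leading candidates by rank, and each FDR in this edgeR fit is 0.91 or higher.

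The clearest difference was in atoh1b (ENSDARG00000099564), a zebrafish Atoh1 gene. It was at 98.0, 129 and 77.0 CPM with Neurod1delECD against 18.4, 15.08, 15.4 and 16.5 CPM with Neurod1. Controls, at 12.1, 14.1 and 9.72 CPM, lay just below the Neurod1 libraries, and the Neurod1delECD libraries stood apart from both. The means of 101 ± 26.0 (SD, n = 3) and 16.3 ± 1.5 (SD, n = 4) CPM differed 6.2-fold (log2 fold change 2.63, standard error 0.53). The FDR was 0.019 with DESeq2 on 16 libraries, and over the alternatives it ranged from 1.18e-12 with DESeq2 on 7 libraries to 1 with edgeR without Neurod1delECD replicate 2. Without Neurod1delECD replicate 2 the log2 fold change was 2.41. That the 2 remaining libraries lay above all Neurod1 libraries follows from the order of all 3 and adds no support. The other Atoh1 genes were barely counted, with ATOH1 (ENSDARG00000055294) at 0.153 CPM or less and atoh1c (ENSDARG00000039602) at 0.0617 CPM or less in the 7 libraries.

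gfi1aa (ENSDARG00000020746), a zinc finger repressor of the Gfi1 family, followed the same order. Its values were 17.0, 38.7 and 51.8 CPM with Neurod1delECD, 9.66, 0.500, 4.75 and 3.48 CPM with Neurod1 and 0.654, 1.44 and 0.589 CPM in controls. The Neurod1delECD libraries lay above all others of these groups, and 3 of 4 Neurod1 libraries were above all controls. The means of 35.8 ± 17.6 (SD, n = 3) and 4.60 ± 3.81 (SD, n = 4) CPM differed 7.79-fold (log2 fold change 2.96, with a standard error of 0.69 and an FDR of 0.0656 with DESeq2). The gene was also on a list of 28 genes chosen earlier from these libraries with both deleted forms pooled, so its direction here is not independent. The same holds for si:dkeyp-46h3.2, si:dkeyp-46h3.3, si:dkeyp-46h3.6, si:dkey-39a18.1, fzd9a, cfd, hoxb13a, plcxd3, amd1 and muc13b, and 10 of the 20 genes called higher and the 1 called lower by DESeq2 on 16 libraries are on that list.

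Of the list of secretory and goblet cell genes, 15 of 19 were tested, none passed with edgeR and 2 passed with DESeq2 on 16 libraries (0.0781% of all genes passed as higher), atoh1b and gfi1aa. The median log2 fold change of the list was 0.15, against -0.05 over all genes tested, and its sign depended on single libraries, from -0.09 without Neurod1 replicate 1 to 0.54 without Neurod1 replicate 3. muc13b (ENSDARG00000079647), which encodes a membrane mucin, was at 115, 118 and 106 CPM with Neurod1delECD and at 36.2 to 66.1 CPM with Neurod1, with controls at 53.2 to 145 CPM. Its log2 fold change of 1.30 had a standard error of 0.39, with an FDR of 0.482 with DESeq2. Genes of later goblet differentiation gave no such order. agr2 (ENSDARG00000070480), a chaperone of mucin folding, was at 130.4 to 188 CPM with Neurod1delECD and 92.8 to 205 CPM with Neurod1, and muc2.2, muc5.1, muc5.2 and muc5.3 were at 5.60 CPM or less in all 7 libraries. xbp1 (ENSDARG00000035622), a factor of secretory cell stress and protein folding, was at 347 to 387 CPM with Neurod1delECD, below the 438 to 458 CPM with Neurod1 (log2 fold change -0.30, standard error 0.25).

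**Figure D2:**
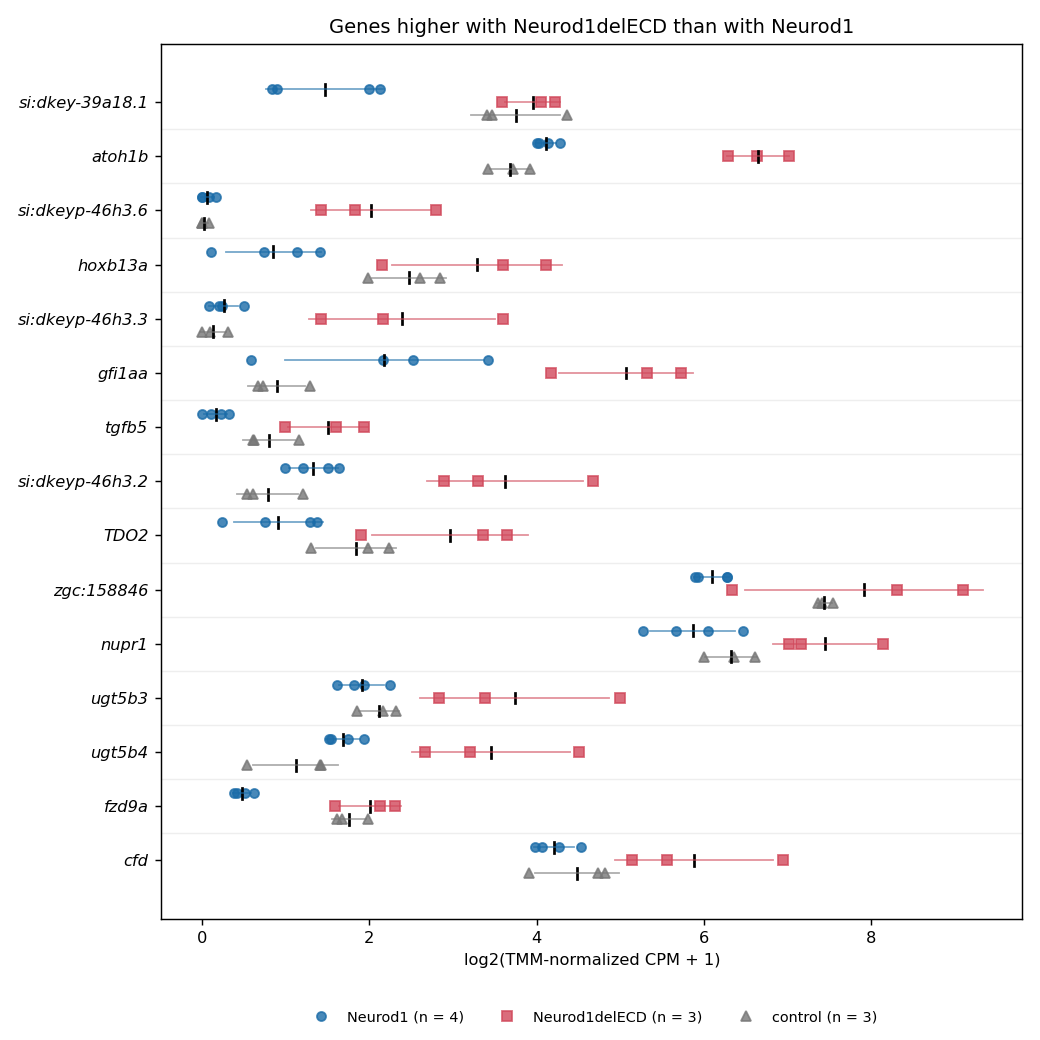
The 15 named genes with higher values with Neurod1delECD, by group. The x axis is log2(TMM-normalized CPM + 1), each point is 1 library, black ticks are group means and thin lines 1 SD. The red squares lie to the right of all blue circles in each row, by the rule that chose these genes. Grey controls sit with Neurod1 for atoh1b and with Neurod1delECD for fzd9a.

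The other named genes with higher values fell into a pair of patterns against controls. For a first group, controls were as low as Neurod1 libraries and Neurod1delECD libraries stood above both. The uncharacterized genes si:dkeyp-46h3.2 (ENSDARG00000092498), si:dkeyp-46h3.3 (ENSDARG00000092887) and si:dkeyp-46h3.6 (ENSDARG00000087363), named after a single genomic clone, belonged here. si:dkeyp-46h3.2 was at 8.80, 24.4 and 6.41 CPM with Neurod1delECD, at 0.987 to 2.1 CPM with Neurod1 and at 0.449 to 1.31 CPM in controls. si:dkeyp-46h3.3 was at 3.46, 11.1 and 1.68 CPM with Neurod1delECD and at 0.417 CPM or less with Neurod1, and si:dkeyp-46h3.6 was at 2.54, 5.95 and 1.68 CPM and at 0.123 CPM or less. All 3 were highest in replicate 2, and counts of such neighbouring transcripts may be shared. ugt5b4 (ENSDARG00000091916) and ugt5b3 (ENSDARG00000099276), which encode UDP-glucuronosyltransferases that conjugate small molecules for excretion, were at 5.34 to 21.6 and 6.1 to 30.9 CPM with Neurod1delECD. With Neurod1 they were at 1.85 to 2.84 and 2.07 to 3.76 CPM. These near-identical paralogs may share reads. nupr1 (ENSDARG00000094557), a stress-responsive nuclear protein, was at 142, 281 and 128 CPM with Neurod1delECD, at 37.5 to 87.1 CPM with Neurod1 and at 63.0 to 96.5 CPM in controls. cfd (ENSDARG00000039579), a serine protease of the complement system, was at 46.2, 122 and 34.2 CPM against 14.7 to 22.0 CPM with Neurod1 and 13.9 to 27.2 CPM in controls. Without Neurod1delECD replicate 2 the log2 fold changes of all these genes were smaller. They fell from 3.08 to 2.28 for si:dkeyp-46h3.2, from 4.72 to 3.64 for si:dkeyp-46h3.3 and from 5.86 to 5.16 for si:dkeyp-46h3.6. For ugt5b4 the fall was from 2.39 to 1.59 and for ugt5b3 from 2.46 to 1.46. For nupr1 it was from 1.62 to 1.17 and for cfd from 1.94 to 1.18.

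In a second group, Neurod1 libraries were the low ones and most Neurod1delECD libraries lay near or above controls. si:dkey-39a18.1 (ENSDARG00000045669) had the lowest FDR with DESeq2 (0.0171). It was at 15.6, 11.0 and 17.5 CPM with Neurod1delECD and 19.6, 9.61 and 10.1 CPM in controls, against 3.37, 3.00, 0.864 and 0.780 CPM with Neurod1. fzd9a (ENSDARG00000035185), a Frizzled receptor for Wnt ligands, was at 2.00 to 3.97 CPM with Neurod1delECD and 2.06 to 2.96 CPM in controls, against 0.300 to 0.536 CPM with Neurod1. tgfb5 (ENSDARG00000071879), a ligand of the TGF-beta family, was at 0.991 to 2.83 CPM, at 0.530 to 1.24 CPM in controls and at 0.247 CPM or less with Neurod1. TDO2 (ENSDARG00000071429), the first enzyme of tryptophan breakdown to kynurenine, was at 2.75 to 11.5 CPM with Neurod1delECD, 1.47 to 3.71 CPM in controls and 0.180 to 1.58 CPM with Neurod1. zgc:158846 (ENSDARG00000058462) was at 315, 548 and 79.8 CPM with Neurod1delECD, and its lowest value was close to the highest Neurod1 library at 76.6 CPM. Its controls, at 163 to 184 CPM, were above all Neurod1 libraries and above Neurod1delECD replicate 3. Summed liver markers had means of 445 CPM with Neurod1, 913 CPM with Neurod1delECD and 1006 CPM in controls. Their part in these values was not tested. Without Neurod1delECD replicate 2 the log2 fold change fell from 3.91 to 3.53 for tgfb5, from 3.01 to 2.62 for TDO2 and from 2.21 to 1.54 for zgc:158846. It rose from 2.88 to 3.05 for si:dkey-39a18.1 and from 2.93 to 3.15 for fzd9a.

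hoxb13a (ENSDARG00000056015), a posterior Hox gene that marks the hindmost trunk and tail, also had the order of this second group. It was at 11.1, 16.3 and 3.43 CPM with Neurod1delECD, at 0.0766, 0.666, 1.67 and 1.2 CPM with Neurod1 and at 6.18, 2.96 and 5.06 CPM in controls. The log2 fold change was 3.48 with a standard error of 0.85, and DESeq2 gave an FDR of 0.0648. Without Neurod1delECD replicate 2 the log2 fold change was 2.98. Among 47 tested Hox genes it was the only one to pass with DESeq2 on 16 libraries. The median of the Hox list was 0.02, and 6 of its genes lay higher without overlap (4.47% of all genes) and 1, HOXC4, lower (3.71%). Besides hoxb13a the former included HOXC13 (ENSDARG00000113877), at 3.18 to 11.9 against 0.741 to 1.23 CPM, and HOXC11 (ENSDARG00000070351), at 17.7 to 22.0 against 9.81 to 14.9 CPM. They also included hoxa13b (ENSDARG00000036254), at 23.2 to 27.1 against 6.97 to 19.7 CPM, and others not described here. Over the whole list 27 genes had higher and 20 had lower values. Most other posterior Hox genes are not described, so no shift of such genes as a set can be read from these. The other HOXC13 copy (ENSDARG00000070353) overlapped between the groups, with a log2 fold change of 0.31. How far back the trunks were cut is not recorded for each library, and its part in these values was not tested.

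DESeq2 on 16 libraries called 1 gene lower against 20 higher with Neurod1delECD, whereas on the 7 libraries its calls were near balance, with 72 lower and 74 higher. plcxd3 (ENSDARG00000054794), which encodes a phospholipase C-like protein, was the 1 gene to pass in this direction with DESeq2 on 16 libraries (FDR 0.1). It was at 0.763, 0 and 0.381 CPM with Neurod1delECD and at 0, 0 and 0.766 CPM in controls, against 16.1, 5.08, 5.92 and 20.6 CPM with Neurod1. The means differed 31.3-fold (log2 fold change -4.92, standard error 1.43), and Neurod1delECD libraries overlapped controls. scg3 (ENSDARG00000086288), which encodes a granin that sorts hormones into secretory granules, was at 178, 60.5, 97.4 and 178 CPM with Neurod1 and at 34.3, 23.5 and 18.8 CPM with Neurod1delECD. Controls were at 3.56, 1.71 and 15.08 CPM, so all Neurod1delECD libraries lay between controls and Neurod1. Its log2 fold change was -2.33 (standard error 0.71), and its FDR was 0.329 with DESeq2.

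The remaining named genes with lower values were not called by DESeq2 on 16 libraries, and were chosen by rank among genes without overlap. etv5a (ENSDARG00000069763), an ETS factor downstream of FGF signaling, was at 20.9, 21.3 and 22.5 CPM with Neurod1delECD and 32.7 to 47.5 CPM with Neurod1, and controls were at 24.9 to 34.1 CPM. st8sia7.1 (ENSDARG00000054211), a sialyltransferase, was at 7.48 to 8.54 CPM against 15.12 to 21.9 CPM, and amd1 (ENSDARG00000043856), which makes a precursor of polyamines, at 79.4 to 114 CPM against 130.3 to 269 CPM. cst3 (ENSDARG00000007795), a secreted inhibitor of cysteine proteases, was at 38.2 to 51.0 CPM against 58.9 to 122 CPM. negr1, GAL3ST4 and PIP4P2 had log2 fold changes of -2.52, -1.69 and -1.99. For PIP4P2 the highest Neurod1delECD library (4.42 CPM) was close to the lowest Neurod1 library (6 CPM), and controls, at 4.22 to 9.48 CPM, overlapped both groups.

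**Figure D3:**
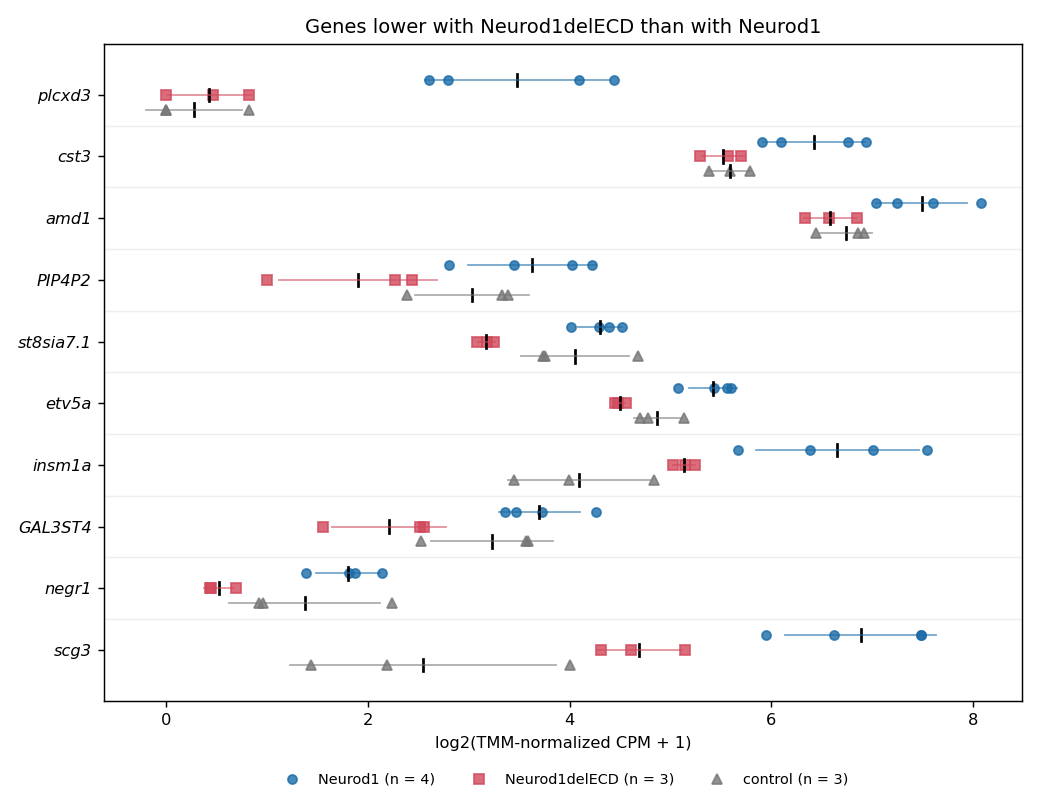
The 10 named genes with lower values with Neurod1delECD, by group. The x axis is log2(TMM-normalized CPM + 1), each point is 1 library, black ticks are group means and thin lines 1 SD. Red squares lie to the left of all blue circles by the rule of choice. Controls overlap the red squares for plcxd3 and lie to their left for scg3.

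In the set of 10 endocrine genes, which was chosen earlier on these libraries for high values with Neurod1 and is therefore no independent evidence, 9 of 10 had lower values with Neurod1delECD. None passed with edgeR or with DESeq2 on 16 libraries, and 3 passed as lower with DESeq2 on 7 libraries (neurod1, rfx6 and insm1a, with 0.354% of all genes). The median log2 fold change was -1.52 against -0.05 over all genes (from -1.63 to -1.32 when each library was left out). For 3 of the 10, namely neurod1, insm1a and c2cd4a, all Neurod1delECD libraries lay below all Neurod1 libraries, a position held by 3.71% of all genes. insm1a (ENSDARG00000091756), a zinc finger factor of endocrine progenitors, was at 34.3, 36.8 and 31.6 CPM with Neurod1delECD, at 186, 49.9, 82.5 and 127 CPM with Neurod1 and at 14.9, 9.88 and 27.6 CPM in controls. The log2 fold change was -1.70 (standard error 0.51). c2cd4a (ENSDARG00000061416) was at 4.73, 2.24 and 1.98 CPM against 5.36 to 14.6 CPM with Neurod1 and 0.291 to 1.83 CPM in controls.

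The fold changes of single members had wide errors, and differences between members were not tested. The lowest was that of rfx6 (ENSDARG00000041702), a factor needed for most islet endocrine cell types in mammals, with 5.50, 0.766 and 4.58 CPM against 56.0, 16.6, 4.38 and 33.5 CPM, a log2 fold change of -2.93 (standard error 1.21). nkx2.2a (ENSDARG00000053298), a homeobox factor of endocrine cells, had -1.95 (standard error 0.90). pax6b (ENSDARG00000045936), a paired homeobox factor of endocrine cells, had -1.38 (standard error 0.84). insm1b (ENSDARG00000053301) was at 105, 169 and 49.3 CPM against 104 to 306 CPM, a log2 fold change of -1.07. pax4 (ENSDARG00000021336), a paired homeobox factor of early endocrine precursors, was at 11.1, 16.3 and 22.6 CPM with Neurod1delECD and at 96.4, 11.2, 15.6 and 38.1 CPM with Neurod1, and had no count in controls. Its groups overlapped, and its log2 fold change moved from -1.28 to -0.38 without Neurod1 replicate 1. tm4sf4 (ENSDARG00000040747), a tetraspanin-like membrane protein, was as high with Neurod1delECD (402, 719 and 513 CPM) as with Neurod1 (258 to 812 CPM), far above controls at 121 to 148 CPM. The log2 fold change of 0.02 had a standard error of 0.41, and sox4b (ENSDARG00000098834), a SOX factor at the start of the secretory cascade, had -0.65 (standard error 0.47).

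**Figure D4:**
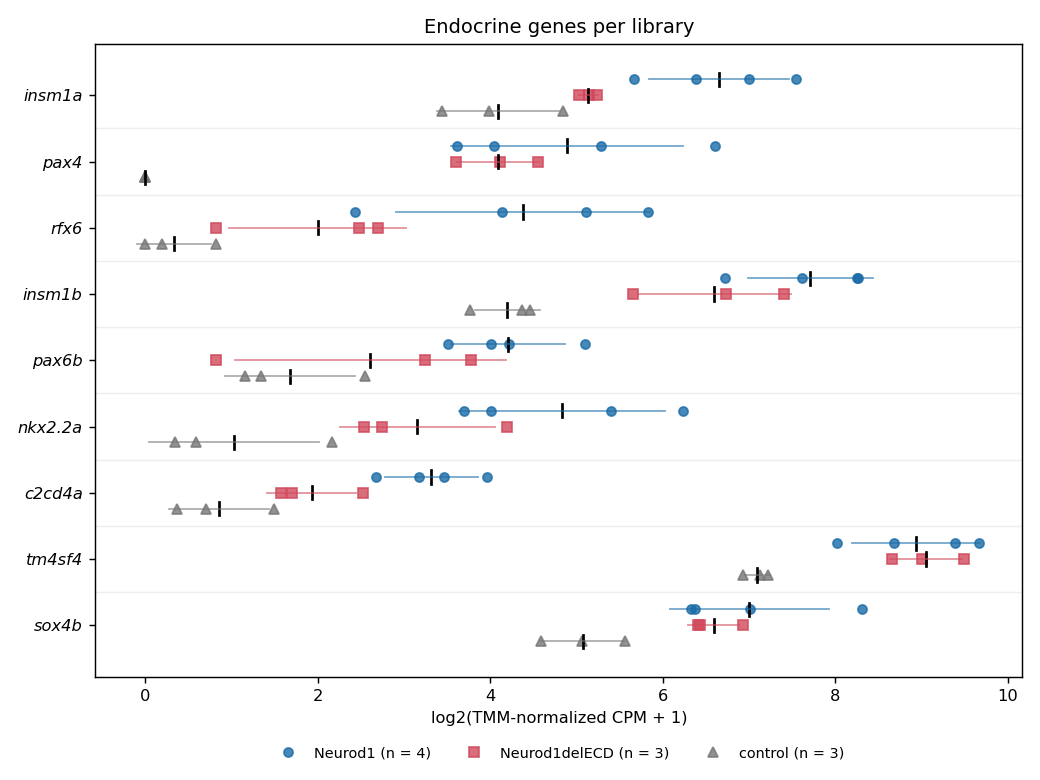
The endocrine set without neurod1 by group. The x axis is log2(TMM-normalized CPM + 1), each point is 1 library, black ticks are group means and thin lines 1 SD. The mean with Neurod1delECD lies between those of controls and Neurod1 in each row but tm4sf4, and red squares lie apart from blue circles for insm1a and c2cd4a only.

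Listed genes that endocrine cells use to make and store hormones mostly had lower values with Neurod1delECD. These lists were chosen with earlier results of these data known. For 24 listed granule genes 23 features were tested and 21 had lower values. Unadjusted p was under 0.05 for 4, all lower, against 1.94% of all genes. The median log2 fold change was -1.06, and -1.65 without Neurod1delECD replicate 1. Summed over the list, values were 104 to 151 CPM with Neurod1delECD and 255 to 332 CPM with Neurod1. Controls, at 85.2 to 252 CPM, spanned the whole Neurod1delECD range. All 10 neuron markers also had lower values (median log2 fold change -0.91). Their sums were 18.6 to 35.5 CPM with Neurod1delECD, 29.2 to 103 CPM with Neurod1 and 11.0 to 436 CPM in controls. The part of neurons in the granule values was not tested. All Neurod1delECD libraries lay below all Neurod1 libraries for 5 of the 23, with 3.71% of all genes in that position. These were scg3, the prohormone convertase pcsk1 (ENSDARG00000002600), pam, which amidates peptide hormones, ptprna and ABCC8 (ENSDARG00000051879), a subunit of the potassium channel of insulin-secreting cells. pcsk1 was at 2.65, 0.118 and 0.305 CPM against 6.54 to 20.0 CPM (log2 fold change -3.25, standard error 1.48). Of 33 hormone genes, 19 were tested and 17 had lower values, with a median of -0.50 that became -1.08 without Neurod1delECD replicate 2. ins and sst2 varied widely within both groups. ins (ENSDARG00000035350) was at 4.06, 202, 163 and 0 CPM with Neurod1 and at 87.8, 68.8 and 0.153 CPM with Neurod1delECD, and sst2 (ENSDARG00000014190) at 57.8, 68.9, 356 and 2.34 CPM and at 52.4, 0.884 and 0.0763 CPM. penkb (ENSDARG00000036045), an enkephalin precursor, was steadier, at 7.66 to 17.5 CPM with Neurod1 and 3.05 to 6.84 CPM with Neurod1delECD (log2 fold change -1.30, standard error 0.61).

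Other endocrine factors, a list of 37 genes with 28 tested, had a median log2 fold change of -0.61, with 20 lower and 8 higher. neurod4 (ENSDARG00000003469), a close relative of neurod1, was at 0.153, 0.118 and 0.991 CPM with Neurod1delECD and 0.679 to 6.05 CPM with Neurod1 (log2 fold change -3.13, standard error 1.31). ascl1a (ENSDARG00000038386, counted in its 3′ UTR), which initiates the intestinal secretory lineage in zebrafish, had higher values. It was at 166, 331 and 93.0 CPM with Neurod1delECD and at 66.3, 99.3, 90.9 and 99.5 CPM with Neurod1, with controls at 95.2 to 127 CPM. Its groups overlapped through replicate 3 (log2 fold change 1.14, standard error 0.45). Of the partners of bHLH factors, E proteins and Id proteins, 9 of 9 were tested, none had a p under 0.05, and the median was -0.10.

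In the Notch pathway, through which neighbouring progenitors inhibit one another, 31 of 34 genes were tested, with a median of -0.30. Before adjustment, 1 gene in each direction had p under 0.05 with edgeR, close to the 2.4% and 1.94% of all genes. No gene of the list lay below all Neurod1 libraries without overlap, against 3.71% of all genes. Without Neurod1delECD replicate 2, 9 of the 31 did so, against 6.14% of all genes, and the median was -0.45. This count was added with the data in view and leaves out a library that overlapped, so it adds no support for a difference. With that library 1 gene lay above all Neurod1 libraries (4.47% of all genes did so), and without it also 1 (7.65%). The ligand named DLL1 in the reference (ENSDARG00000020219) was at 153, 183 and 107 CPM against 53.0 to 98.6 CPM, with controls at 50.7 to 80.7 CPM (log2 fold change 0.89, standard error 0.40). dll4 (ENSDARG00000070425) had lower values, at 8.80 to 22.6 CPM against 16.6 to 75.7 CPM (log2 fold change -1.57, standard error 0.82), and dlb (ENSDARG00000004232) was at 33.1 to 47.4 CPM against 39.3 to 107 CPM. The receptor gene NOTCH1 (ENSDARG00000103554) was at 24.1 to 65.1 CPM against 56.2 to 203 CPM (log2 fold change -1.58, standard error 0.64). The target genes her15.1 and her6 overlapped widely, with log2 fold changes of 0.48 and 0.12. Of the retinoid genes, 26 were tested with a median of 0.10, and cyp26a1 (ENSDARG00000033999), which breaks down retinoic acid, was at 10.2, 35.2 and 13.7 CPM against 5.36 to 9.57 CPM (log2 fold change 1.39, standard error 0.54). The 22 tested cell cycle genes had a median of 0.18 and none had a p under 0.05.

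**Figure D5:**
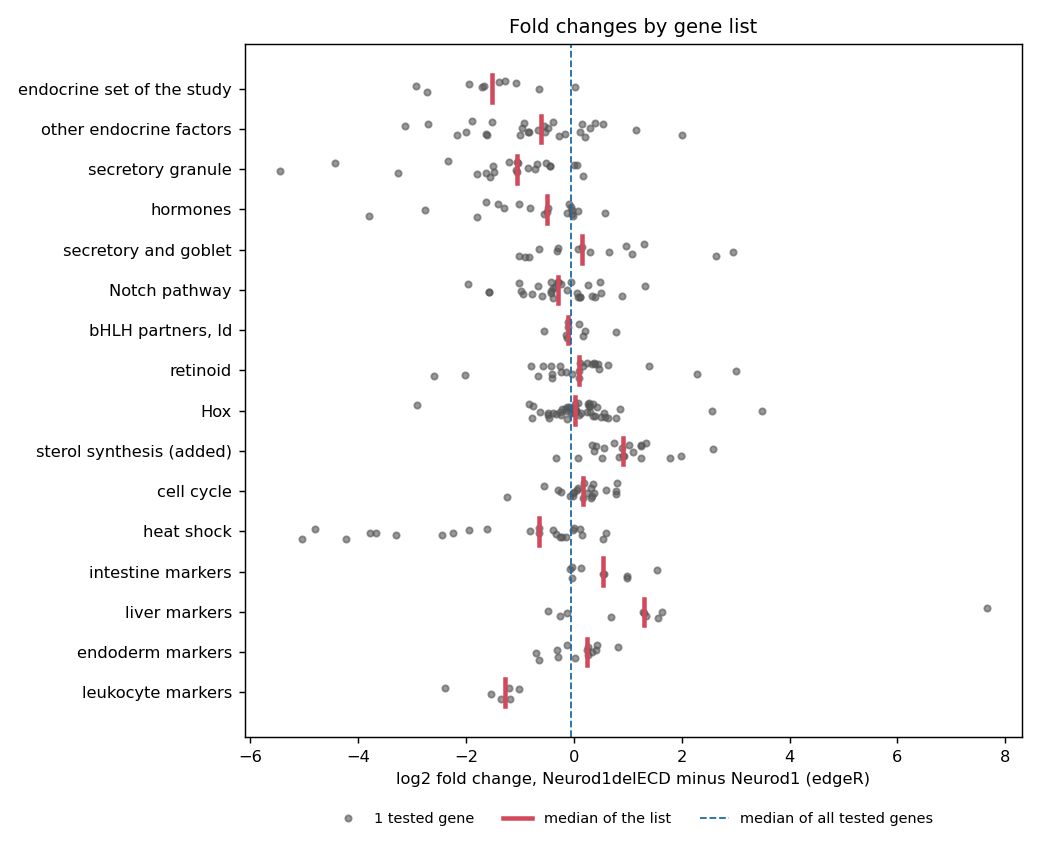
Log2 fold changes of Neurod1delECD minus Neurod1 by gene list. Each point is 1 tested gene, red ticks are list medians and the dashed line is the median of all genes tested (-0.05). The muscle, neuron and other remaining marker lists are not drawn. Among the lists drawn, medians are lowest for the endocrine set (-1.52), leukocyte markers (-1.28) and granule genes (-1.06), and highest for liver markers (1.29) and the added sterol list (0.91).

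No listed marker of another cell type and no heat shock gene passed with edgeR or with DESeq2 on 16 libraries. For 10 listed intestine markers, 9 tested features had a median of 0.55. Of these, 3 had an unadjusted p under 0.05 as higher (2.4% of all genes) and 3 lay higher without overlap (4.47% of all genes). None was lower by either measure. vil1 (ENSDARG00000040466), a microvillus protein, was at 119, 290.4 and 131 CPM with Neurod1delECD against 76.1 to 115 CPM with Neurod1. anpepb (ENSDARG00000103878), an enterocyte peptidase, was at 84.1, 124 and 101 CPM against 36.5 to 78.3 CPM, with controls at 5.48 to 16.1 CPM. fabp2 (ENSDARG00000006427), a fatty acid carrier of enterocytes, was at 449.7, 1036 and 151 CPM against 115 to 332 CPM, and overlapped. Liver markers had a median of 1.29 over 10 tested genes, which was 0.12 without Neurod1delECD replicate 2, and the hepatocyte gene fabp10a had counts in replicates 1 and 2 of Neurod1delECD (0.254 and 5.25 CPM) and none with Neurod1. All 10 neuron markers and all 14 tested muscle markers had lower values (medians -0.91 and -1.09), as did all 6 tested leukocyte markers (-1.28), and the median of the muscle markers was -3.25 without Neurod1delECD replicate 1 and 1.09 without Neurod1 replicate 2. The part of these cell types in the results was not tested.

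Heat shock genes mostly had lower values with Neurod1delECD. Of 24 tested features 20 had lower values (median -0.65), and 5 lay below all Neurod1 libraries without overlap, against 3.71% of all genes. With DESeq2 on 7 libraries, 6 of the 24 passed as lower and none as higher, against 0.354% of all genes passing as lower. Summed over the list, values overlapped, at 14214 to 20135 CPM with Neurod1delECD and 14971 to 25689 CPM with Neurod1. Controls were at 13882 to 27097 CPM. HSP90AA1 (ENSDARG00000024746), an inducible chaperone, was at 49.5, 28.8 and 44.8 CPM with Neurod1delECD and at 153, 539, 1409.6 and 143 CPM with Neurod1, while controls were at 84.9, 2024 and 146 CPM. hsp70l (ENSDARG00000055723), whose promoter drives the transgenes, was at 18.7, 0.943 and 1.75 CPM with Neurod1delECD and at 17.39, 188, 692 and 53.6 CPM with Neurod1. Whether the state of the heat shock response takes part in the other differences was not tested.

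Compared directly with Neurod1delUCE, Neurod1delECD gave no gene past the FDR of 0.1 with edgeR and 1 with DESeq2. The levels of the leading genes with Neurod1delUCE replicates 1 to 3 were 16.5, 97.2 and 180.3 CPM for atoh1b, 29.6, 67.7 and 75.9 CPM for gfi1aa and 0.372, 0.0761 and 0 CPM for plcxd3. For fzd9a they were 3.07, 0.304 and 0.622 CPM, so in replicates 2 and 3 they were nearer to Neurod1 than to Neurod1delECD. Replicate 1 had the transgene feature at 1191 CPM and hsp70l at 3922 CPM, far from the other libraries. No difference in these genes between the deleted forms passed the threshold with either tool, which does not show that the forms act alike.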

How the data were processed

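Smart-seq2 libraries were read by the authors in single 75-base reads, which after trimming were mapped to GRCz11 with STAR 2.5.4b. They deposited raw counts per gene, with a feature added for the neurod1 region of the transgene. The strand setting is not given in the sources used here, so overlapping and near-identical genes are uncertain. Of 31902 features, 29192 were named, mostly from an Ensembl name table and the supplementary tables, which gives some paralogs 1 human-style symbol. The primer sequences come from the supplementary primer table.

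Counts were analysed in R 4.3.3 with edgeR 4.0.16 (TMM, filterByExpr, quasi-likelihood test, 18911 genes, 16 libraries in 5 groups, contrast Neurod1delECD minus Neurod1, Benjamini-Hochberg FDR of 0.1). Alternatives were DESeq2 1.42.0, limma 3.58.1 voom, RLE scaling, no filter, only 7 libraries, a replicate block, an FDR of 0.05 and leaving out each library. edgeR, DESeq2 and voom on 16 libraries were also run on simulated counts, drawn with the spread that edgeR estimated, in which 200 genes above 1 CPM were changed. The transgene feature was tested on log2(CPM + 1) by exact permutation.

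The members, gene lists and rules were chosen with earlier results of these data known. Named genes are those past the FDR with edgeR, of which there were none. Where fewer than 10 passed in a direction, genes past the FDR with DESeq2 on 16 libraries without overlap between groups were taken (up to 15 by p), then genes with the smallest edgeR p, no overlap and a mean above 1 CPM (up to 10 in all), and members of described lists. The 7 enteroendocrine libraries were not used here.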

Additional observations from a re-analysis of the deposited data

Results flagged for a closer look

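Counts of the neurod1 transgene feature were present in the 3 Ascl1a libraries, which carry no neurod1 transgene by their labels. These libraries enter the fits only through the gene filter, the scaling and the shared spread, and no group is tested against them. It was at 21.8 CPM in the lowest and 177 CPM in the highest of these libraries, against 1.09 CPM in the highest control. Even the lowest lay above all Neurod1delECD libraries and above some Neurod1 libraries. The feature was singled out because libraries outside the comparison held a signal above the controls. A count of this feature is therefore not particular to libraries with a neurod1 transgene. Among 50 features checked by Dixon's test in the 4 Neurod1 libraries (the named genes, the transgene feature, the endocrine set, the list of 28 genes and the secretory list, where the mean was above 1 CPM), no library stood apart.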

How the results depend on the processing

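The count of genes past the FDR of 0.1 was 0 with edgeR, and stayed 0 with RLE scaling, without the filter, at an FDR of 0.05 and when each of the 7 libraries was left out (range 0 to 0). It was 21 with DESeq2 on 16 libraries, 146 with DESeq2 on 7 libraries, 1 with voom and 1 with edgeR on 7 libraries. With single libraries left out of the edgeR fit, the number of genes with p under 0.05 ranged from 291 without Neurod1delECD replicate 2 to 1399 without replicate 3 (2145 with voom, 1865 with DESeq2 on 7 libraries), and the median of all genes moved from -0.05 to -0.10 without replicate 3. Replicate numbers did not pair the libraries (correlation of deviations -0.12, -0.06 and -0.20), and a replicate block gave 0 calls. Members of the lists called rose from 0 to 12 with DESeq2 on 16 libraries, where 0.082% of all genes passed. Of these members, 10 called higher and 1 called lower are on the list of 28 genes chosen earlier from these libraries. Calls against Neurod1delUCE rose from 0 to 1. Without Neurod1delECD replicate 2, which was added with the data in view, genes without overlap numbered 1446 higher (7.65%) and 1162 lower (6.14%), more because fewer libraries must agree. Endogenous neurod1 passed with DESeq2 on 7 libraries (log2 fold change -2.70, FDR 1.36e-04). Of 462 values of 33 genes, 457 kept their direction. Exceptions were tm4sf4, at -0.14 with voom, -0.21 and -0.09 without Neurod1 replicates 2 and 3 and -0.24 without Neurod1delECD replicate 2, and sox4b, at 0.0062 without Neurod1 replicate 1. With single libraries left out, tm4sf4 ranged from -0.24 to 0.29 and sox4b from -0.86 to 0.0062. The cause of these shifts was not tested.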

Other observations

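Enzymes of cholesterol synthesis mostly had higher values with Neurod1delECD than with Neurod1. This list was chosen after values were seen, when CYP51A1, itself a member, was found among the genes called by DESeq2. It therefore has no test, and the counts below describe the list and are no independent support. The 20 listed enzymes correspond to 21 tested features. Of these, 20 had higher values and 11 had an unadjusted p under 0.05, all higher, against 2.4% of all genes. The median log2 fold change was 0.91, from 0.83 to 1.00 when each library was left out, against -0.05 over all genes. All Neurod1delECD libraries lay above all Neurod1 libraries for 13 of the 21, against 4.47% of all genes. Without Neurod1delECD replicate 2, where fewer libraries must agree, the number was 14, against 7.65% of all genes.

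CYP51A1 (ENSDARG00000042641), the lanosterol demethylase, was at 23.8, 36.2 and 43.1 CPM with Neurod1delECD, at 15.9, 7.91, 8.76 and 7.20 CPM with Neurod1 and at 15.9, 14.3 and 11.7 CPM in controls. EBP (ENSDARG00000046098), a sterol isomerase, was at 55.1, 77.9 and 67.5 CPM against 32.0, 32.3, 28.6 and 19.6 CPM (log2 fold change 1.25, standard error 0.33), with controls at 34.0 to 46.9 CPM. With Neurod1delUCE, EBP was at 19.2, 53.1 and 44.1 CPM, lowest in replicate 1.

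Besides TDO2, KMO (ENSDARG00000009160), a later enzyme of kynurenine breakdown, was at 119, 128 and 64.7 CPM with Neurod1delECD against 23.7 to 64.2 CPM with Neurod1 and 65.6 to 85.9 CPM in controls. SLC13A3 (ENSDARG00000069478), a dicarboxylate carrier, was at 87.0, 83.6 and 31.9 CPM against 7.20 to 31.0 CPM, with controls at 42.7 to 68.2 CPM. Both were chosen after their values were seen, and neither passed with edgeR (FDR 0.91) or with DESeq2 on 16 libraries (FDR 0.332 and 0.299).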
